A study of Capra hircus with 6 samples.

Results

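The genes described here encode the proteins of the cytosolic ribosome and the factors that start and extend protein synthesis on it. They were chosen by name alone: the ribosomal protein genes RPL, RPS, RPLP and RPSA, the elongation factor genes EEF1 and EEF2 and the initiation factor genes EIF1 to EIF6, without the kinases RPS6K, EEF2K and EIF2AK. The rule took 75 of the 27271 genes in the files, 18989 of which had a name or a description. By role they were 29 ribosomal protein genes (13 of the 60S subunit, 12 of the 40S subunit and 4 paralogs), 5 genes of elongation factor 1, and 35 genes of initiation factors and their inhibitors. The other 6 carry such a symbol but are not translation factors by function, such as EIF4A3, a core protein of the exon junction complex.

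Primary intramuscular preadipocytes, the precursors of the fat cells inside muscle, had been isolated from the longissimus dorsi of 3-day-old wild-type Jianzhou goats. The NC groups (n = 3) were transfected with a negative control siRNA and the Si-LIPG groups (n = 3) with a single siRNA against LIPG, which encodes endothelial lipase. All 6 cultures were then kept for 48 h in induction medium with 50 μmol/L oleic acid. The comparison of the NC groups with the Si-LIPG groups asked how the transcript profile differed after LIPG silencing. The study's methods speak of biological replicates, while the labels do not say whether the libraries of a group came from separate animals or cultures, so the p-values measure the spread between these libraries.

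Ribosomal proteins and ribosomal RNA form the small 40S and the large 60S subunit. Initiation factors bring the small subunit and the initiator tRNA to the capped end of an mRNA, where the eIF4 factors bind, and elongation factor 1 then delivers each aminoacyl-tRNA. Control is exerted mainly on eIF4E, which binds the cap and is blocked by the 4E-binding proteins, and on eIF2, which carries the initiator tRNA and is recharged by eIF2B. Ribosomal protein and EEF1 mRNAs are among the most abundant of a cell, and mTORC1 controls their translation through a shared start of the mRNA.

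Few of the reads were counted on genes. Of 36451898 to 52638817 reads per library, 524776 to 1051230 fell on a gene, which was 1.31% ± 0.279 in the NC groups against 2.44% ± 0.566 in the Si-LIPG groups (SD, n = 3 each). Between 91.6% and 93.7% of the reads lay outside the annotated features as counted. The library kit keeps the strand of each transcript, and the strand setting of the counting was not given in the sources used here. ND6, the one mitochondrial protein gene transcribed from the opposite strand, had 22.6 to 99.3 times the counts per base of the median of the other 12. Whether the counts below are reads of the genes' own strand can therefore not be told, and every level and difference is a statement about counted reads. The silenced gene LIPG had 0, 2 and 0 counts in the NC libraries against 0, 2 and 2 in the Si-LIPG libraries. Its counts therefore do not check the labels. The balance of higher and lower genes was opposite to the one the study reported, as given below, and the reason was not tested. Of 12 mesenchymal markers found by name 11 had over 3 counts in all, with a summed level of 14069 to 29567 CPM in the NC libraries against 41407 to 44267 CPM in the Si-LIPG libraries. COL1A1 and COL1A2 held most of this sum, at 5414 and 5176 CPM in NC 1 and 16544 and 16965 CPM in Si-LIPG 3. ENG was lower in all Si-LIPG libraries, at 591, 468 and 486 CPM against 435, 365 and 333 CPM. DLK1 was at 0. The 9 myogenic markers found summed to 276 to 400 CPM and 508 to 557 CPM. The 10 adipocyte markers summed to 19.1 to 69.8 CPM and 39.3 to 51.9 CPM, with LPL at 0. Of 7 endothelial markers 5 were at 0, and PTPRC, C1QA and ITGAM were at 0 among the 7 leukocyte markers found.

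The member genes, like the median gene tested, took a larger part of the counted reads in the Si-LIPG groups. Their share of the counts on genes was 0.587%, 1.13% and 1.28% in the NC libraries (mean 1.00% ± 0.366, SD, n = 3) and 1.43%, 1.90% and 1.93% in the Si-LIPG libraries (mean 1.76% ± 0.283, SD, n = 3), a ratio of 1.76. The groups did not overlap, and NC 1 was the lowest library. An exact permutation test of 3 against 3 libraries cannot give a two-sided p below 0.1, so no test was made of the share. The ratio was 1.503 for ribosomal proteins, 1.92 for elongation factors and 1.83 for initiation factors, as shown in the plot of shares by library. EEF1A1 alone took 0.277% ± 0.116 and 0.581% ± 0.149 of the counts (SD, n = 3 each), and without it the ratio was 1.62. The rise was not particular to the members. When libraries were scaled by their counts on genes alone, the 6574 genes tested were higher by a median of 0.714 in log2 units. The 63 members among them were higher by a median of 0.706. As a share of all reads in the files the members' ratio was 3.18, since the part of the reads that fell on any gene was itself 1.86 times higher in the Si-LIPG groups. The composition of the counted reads moved in the same libraries, because the 5 genes with the most counts held 22.9%, 18.4% and 19.3% of them in the NC libraries against 17.6%, 12.6% and 12.5% in the Si-LIPG libraries. Its part in the members' share was not tested.

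Depth set how many members could be compared. The median count of a member was 18, 34 and 39 in the NC libraries against 60, 98 and 99 in the Si-LIPG libraries, and 16 of the 75 members had no count in NC 1. A filter on low counts kept 6574 genes, with 63 of the members: 27 ribosomal protein, 4 elongation factor and 30 initiation factor genes and 2 of the 6 others. Of the 12 members left out, RPL10L, RPL3L and EIF4E1B had no count in any library, and each of the other 9 had at most 17 counts in a library. Among these, EEF1A2, the EEF1A form of muscle and nerve, had 0, 8 and 3 counts in the NC libraries against 1, 1 and 17 in the Si-LIPG libraries. EEF1AKMT1, a methyltransferase that acts on eEF1A, had 0 counts in all 3 NC libraries but 4, 10 and 8 in the Si-LIPG libraries. A count of 0 allows up to 3 counts in a library, which in NC 1 is 5.72 CPM, so no fold can be given for it. Only 25 of 81 core ribosomal protein symbols were found by name, and 140 further rows carried only a description of a ribosomal protein or translation factor. These rows held 5005 counts in all, against 70287 for the members, so the member set is a named part of the ribosome and not all of it. RPS6, RPS27, RPL22L1, EEF2, EIF4E and EIF5A were not found by name, and rows that only describe such a protein are not counted as members.

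Levels were compared between genes per length, as FPKM. EEF1A1, which delivers aminoacyl-tRNA to the ribosome, was the most abundant member by far, with an FPKM of 1995 ± 833 in the NC groups and 4183 ± 1076 in the Si-LIPG groups (SD, n = 3 each). RPL31 (mean FPKM over the 6 libraries 751), RPL27 (642), RPL27A (593), RPS16 (557) and RPLP0 (525) followed. The order of these 5 does not separate them, since their libraries overlapped. The 25 core ribosomal protein genes mostly encode proteins that enter each ribosome as a single copy, and their mean FPKM spanned 13.2 to 751, a 56.8-fold range. The 13 genes of the 60S subunit spanned a 9.17-fold range and the 12 of the 40S subunit a 42.1-fold range. RPS24 was the lowest, and the gene length behind its FPKM was 3743 bases against a median of 477 for the ribosomal proteins. The subunits of eIF3, the largest initiation factor, spanned 11.8 (EIF3L) to 144 (EIF3A). Ribosomal proteins and eEF1A1 share long stretches with processed copies in the genome. Between 3.50% and 3.80% of the reads aligned to several places and were counted on no gene, so that the level of any single ribosomal protein gene is uncertain.

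**Figure D1:**
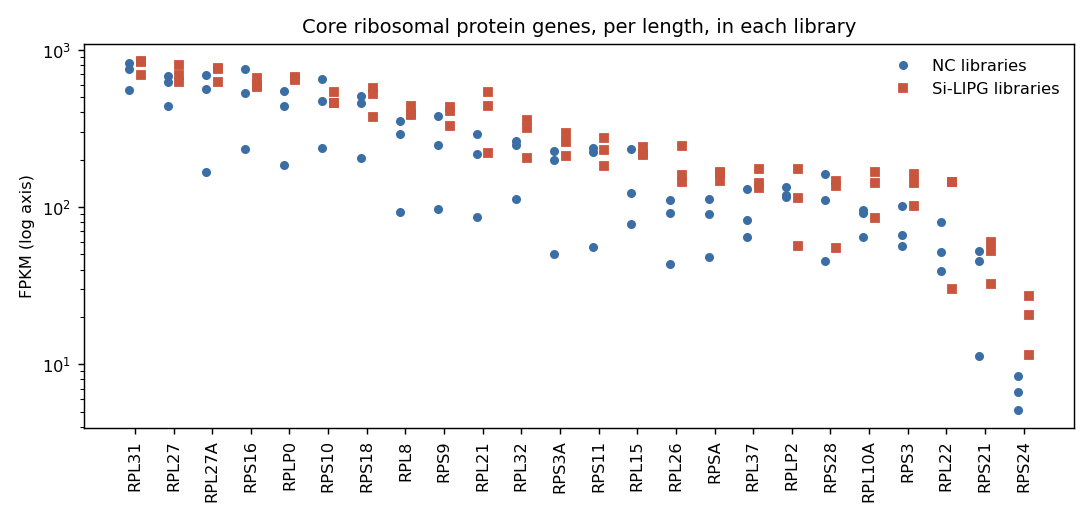
FPKM (log axis) of the core ribosomal protein genes reported here in each library, ordered by their mean over the 6 libraries; circles are NC libraries and squares Si-LIPG libraries. The genes run from RPL31 at a mean of 751 to RPS24 at 13.2, and the lowest circle of most genes is NC 1.

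Differences between the groups were then taken from counts normalized by TMM, which sets the bulk of genes level between libraries. Given as Si-LIPG over NC, the median log2 fold change of the 63 members was 0.17, against 0.16 for all 6574 genes tested, and 32 of the 63 lay above the median of all genes. Above 0 were 42 of the 63, with 58.4% of all genes on that side. No member had an adjusted p under 0.05 in edgeR's quasi-likelihood test, where 0.974% of all genes were called higher and 5.54% lower, and the smallest adjusted p was 0.0859, for EIF2B5. DESeq2 called none either, where 0.552% of all genes were called higher and 3.62% lower. At an unadjusted p under 0.05, which with a fold change over 1.5 was the criterion of the study, 7 members were higher and 1 was lower with edgeR, and 6 and 1 with DESeq2. With edgeR the criterion was met by 7.83% of all genes in the higher and 12.9% in the lower direction, and by 11.1% and 1.59% of the tested members. With DESeq2 the higher direction held 629 genes, which was 4.24% of 14848, and 8.33% of 72 members. The lower direction held 1064 genes and 1 member. At this criterion the study reported nearly the same gene counts with the directions exchanged. Whether the labels or the contrast were exchanged was not tested. Higher and lower in Si-LIPG follow the library titles throughout, and would be reversed if the titles were. The libraries of the groups did not overlap for 10 members that were higher (15.2% of all genes) and 2 that were lower (13.4% of all genes).

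**Figure D2:**
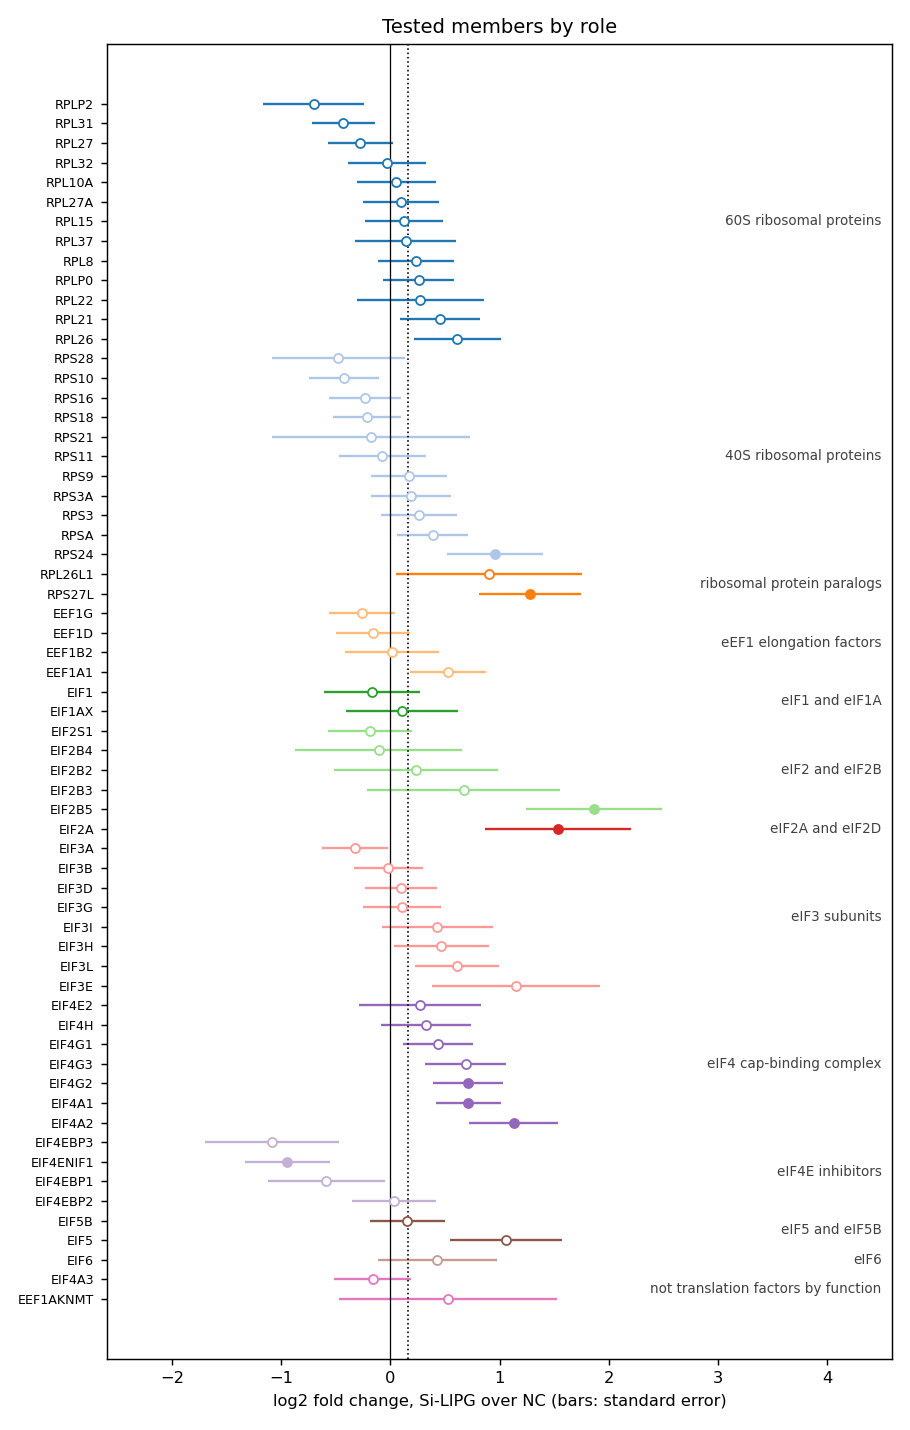
Log2 fold change (Si-LIPG over NC, points) with its standard error (bars) from edgeR for the tested members reported here, by role; filled points have an unadjusted p under 0.05, the solid line is 0 and the dotted line the median of all tested genes at 0.16. The eIF4 cap-binding factors all lie to the right of the dotted line and the eIF4E inhibitors all to its left.

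Among the proteins of the large subunit, no gene met the criterion in either direction, and the median log2 fold change of the 13 was 0.12. RPLP0, which anchors the stalk of the subunit, had 379, 576 and 738 CPM in the NC libraries against 780, 655 and 599 CPM in the Si-LIPG libraries. Its groups overlapped, with a log2 fold change of 0.26 ± 0.33 (SE). RPL31, a protein near the exit of the nascent chain, had 357, 339 and 318 CPM in the NC libraries against 255, 255 and 241 CPM in the Si-LIPG libraries. These groups did not overlap, and the log2 fold change was -0.43 ± 0.29 (SE; adjusted p = 0.437, edgeR). RPL27 was the other member whose libraries were all lower, at 305, 277 and 309 CPM and at 275, 265 and 197 CPM. RPL26, a protein near the exit tunnel, lay on the other side, with 32.4, 43.2 and 53.6 CPM in the NC libraries against 62.1, 56.2 and 82.5 CPM in the Si-LIPG libraries, without overlap. RPLP2, a stalk protein, had a log2 fold change of -0.70 ± 0.47 and RPL22, an RNA-binding protein that the ribosome can do without, one of 0.28 ± 0.58 (SE). When every read in the files, in place of TMM, set the scale, RPL31, RPL27 and RPLP2 were on the higher side, at 1.02, 1.13 and 0.88.

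The small subunit was similar, with a median log2 fold change of 0.05 over 12 genes. RPS24, a 40S protein altered in Diamond-Blackfan anemia, had 10, 15 and 22 counts in the NC libraries against 37, 100 and 81 in the Si-LIPG libraries. In CPM these were 32.4, 27.0 and 34.7 against 41.7, 81.5 and 59.2, so that all Si-LIPG libraries were higher, with a log2 fold change of 0.96 ± 0.44 (SE; unadjusted p = 0.0451, adjusted p = 0.228, edgeR). RPSA, also known as a laminin receptor, was higher without overlap too, with a log2 fold change of 0.39. RPS10 and RPS16, the most abundant 40S members by CPM, had log2 fold changes of -0.42 ± 0.32 and -0.23 ± 0.33, and RPS28 one of -0.48 ± 0.61 (SE), all with overlapping groups. These 3 were above 0 with counts scaled to all reads (0.91, 1.07 and 0.95).

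Of the 4 ribosomal protein paralogs, genes that encode a second form of a ribosomal protein, only RPS27L and RPL26L1 had enough counts to be tested. RPS27L, the second form of RPS27, had 22.7, 18.0 and 26.8 CPM in the NC libraries against 41.7, 69.3 and 53.3 CPM in the Si-LIPG libraries. The groups did not overlap, and the log2 fold change was 1.28 ± 0.47 (SE; unadjusted p = 0.0153, adjusted p = 0.119, edgeR). RPL26L1 had 8, 2 and 3 counts in the NC libraries against 14, 26 and 28 in the Si-LIPG libraries, with overlap in CPM. Its log2 fold change was 0.91 ± 0.85 (SE), or 2.14 without NC 1, beside 0.61 ± 0.40 for RPL26 itself.

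**Figure D3:**
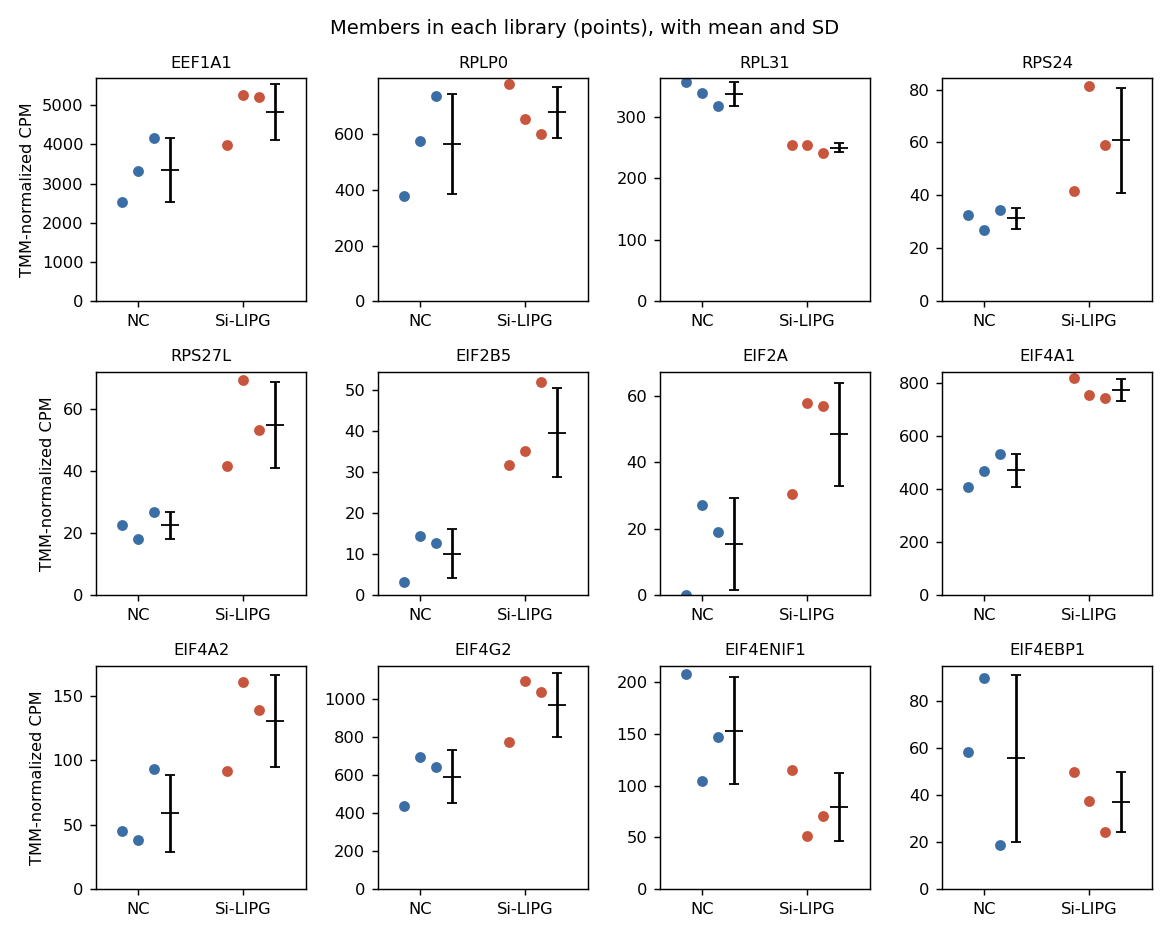
TMM-normalized CPM of 12 members in each library (points; axes start at 0), with the mean and SD of each group (bars, n = 3). RPL31 is lower in all Si-LIPG libraries, and RPS24, RPS27L, EIF2B5, EIF2A, EIF4A1 and EIF4G2 are higher in all of them, while the groups of the other 5 overlap.

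Elongation factor 1 has a GTPase subunit, eEF1A, and an exchange complex of the subunits eEF1B2, eEF1D and eEF1G. The GTPase gene EEF1A1 had 2539, 3332 and 4156 CPM in the NC libraries against 3991, 5255 and 5204 CPM in the Si-LIPG libraries. NC 3 exceeded Si-LIPG 1, and the log2 fold change was 0.53 ± 0.35 (SE; adjusted p = 0.428, edgeR). The exchange subunits lay lower, with log2 fold changes of 0.02 ± 0.43 for EEF1B2, -0.16 ± 0.34 for EEF1D and -0.26 ± 0.31 for EEF1G (SE). Their groups overlapped in each case, and the difference between EEF1A1 and these subunits was not tested. EEF1D and EEF1G were above 0 with library sizes alone (0.43 and 0.35) and with counts scaled to all reads (1.31 and 1.26).

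Within initiation, the eIF4 factors and the inhibitors of eIF4E lay on opposite sides of the median of all genes. The eIF4 group holds the RNA helicases EIF4A1 and EIF4A2, the scaffolds EIF4G1 to EIF4G3, the helicase cofactor EIF4H and the cap-binding homolog EIF4E2. All 7 tested had a log2 fold change above the median of all genes, with a group median of 0.69. The criterion was met by 3 of them in the higher direction, beside 7.83% of all genes. Without NC 1, and likewise without Si-LIPG 2, 5 of the 7 lay above the median of all genes. EIF4A1 had 409, 468 and 533 CPM in the NC libraries against 819, 754 and 742 CPM in the Si-LIPG libraries. The groups were well apart, at 470 ± 62.1 and 772 ± 41.5 CPM (SD, n = 3 each), with a log2 fold change of 0.71 ± 0.30 (SE; unadjusted p = 0.0297, adjusted p = 0.177, edgeR). EIF4G2, a scaffold that works without eIF4E, had 434, 695 and 645 CPM in the NC libraries against 776, 1095 and 1036 CPM in the Si-LIPG libraries. It did not overlap either, and its log2 fold change was also 0.71 (SE 0.32, adjusted p = 0.221, edgeR). EIF4A2 had 45.4, 37.8 and 93.0 CPM in the NC libraries against 91.4, 161 and 140 CPM in the Si-LIPG libraries, where NC 3 lay just above Si-LIPG 1. Its log2 fold change was, at 1.13 ± 0.41 (SE; unadjusted p = 0.0142, adjusted p = 0.114, edgeR), above those of the other 6. RFC4 overlaps EIF4A2 in RefSeq's gene models for goat (ARS1.2), and SENP3 and CD68 lie within 1 kb of EIF4A1, so reads of these genes could be among their counts.

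The eIF4E inhibitors were the 4E-binding proteins EIF4EBP1, EIF4EBP2 and EIF4EBP3 and the transporter EIF4ENIF1, which takes eIF4E to the nucleus and to sites of mRNA storage. All 4 lay below the median of all genes, with a group median of -0.77. Without NC 2, and likewise without Si-LIPG 2, 1 of the 4 lay above it. EIF4ENIF1 was the one member that met the criterion in the lower direction, with 208, 104 and 147 CPM in the NC libraries against 115, 51.3 and 70.9 CPM in the Si-LIPG libraries. NC 2 lay below Si-LIPG 1, and the log2 fold change was -0.94 ± 0.39 (SE; unadjusted p = 0.0282, adjusted p = 0.171, edgeR). Its raw counts were 64, 58 and 93 against 102, 63 and 97, and scaled to all reads in the files its log2 fold change was 0.49. EIF4EBP3 had a log2 fold change of -1.08 ± 0.61, EIF4EBP1, the main mTORC1-controlled form, one of -0.59 ± 0.54, and EIF4EBP2 one of 0.03 ± 0.39 (SE), all with overlapping groups. Scaled to all reads, EIF4EBP3 stood at 0.498 and EIF4EBP1 at 0.78. Without NC 1 the value of EIF4EBP3 was -0.36, and without NC 2 that of EIF4EBP1 was 0.021. The counts of the tested and untested eIF4 factors together were 3.14, 5.97 and 9.02 times those of the 4 inhibitors in the NC libraries against 10.2, 19.7 and 13.9 times in the Si-LIPG libraries. This ratio does not depend on the scaling between libraries, its groups did not overlap, and NC 1 was again the lowest. Less the median of all genes, the median of the eIF4 group was 0.26 to 0.80 over 15 other settings and that of the inhibitors -1.26 to -0.59, as the plot of role medians shows. Both groups were singled out after their values were seen, and the difference between them was not tested.

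**Figure D4:**
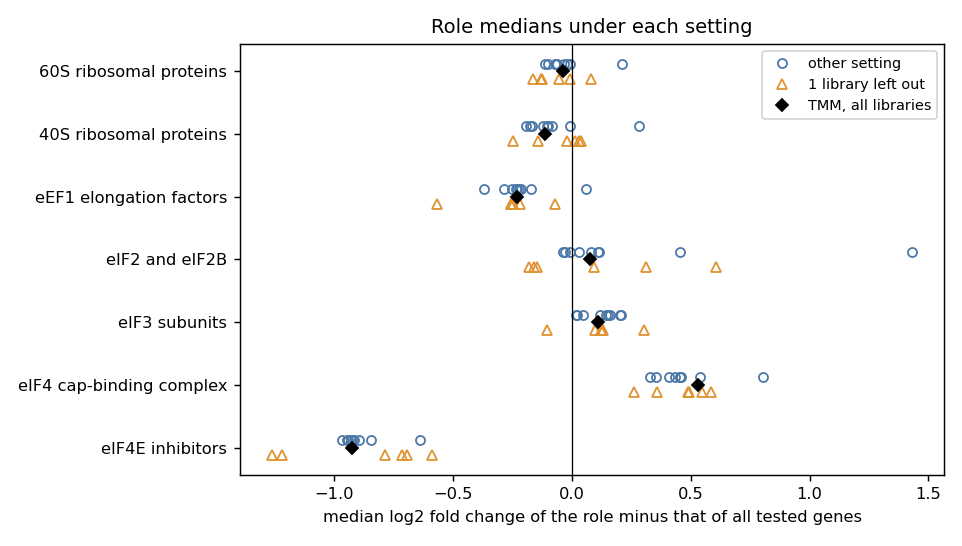
Median log2 fold change of each role with at least 4 tested members, less that of all tested genes, with TMM and all libraries (diamonds), under other settings (circles) and with 1 library left out (triangles). The median of the eIF4 cap-binding factors stays right of 0 and that of the eIF4E inhibitors left of 0 in every setting. The median of each other role falls on both sides.

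Initiator tRNA delivery showed the member with the largest difference. EIF2B5, the catalytic subunit of the exchange factor eIF2B, had 1, 8 and 8 counts in the NC libraries against 28, 43 and 71 in the Si-LIPG libraries. In CPM these were 3.24, 14.4 and 12.6 against 31.6, 35.0 and 51.9, so that the groups did not overlap. The log2 fold change was 1.86 ± 0.62 (SE; unadjusted p = 0.00895, adjusted p = 0.0859, edgeR), and it was 1.53 to 2.14 with any one library left out. The other tested eIF2B subunits had overlapping groups, with log2 fold changes of 0.67 ± 0.89 for EIF2B3, 0.23 ± 0.76 for EIF2B2 and -0.11 ± 0.77 for EIF2B4 (SE; 0.55 without NC 3), and their difference from EIF2B5 was not tested. EIF2S1, the subunit of eIF2 that stress kinases phosphorylate, had 97.3, 113 and 61.5 CPM in the NC libraries against 53.0, 104 and 79.6 CPM in the Si-LIPG libraries. Its groups overlapped, with a log2 fold change of -0.19 ± 0.38 (SE). EIF2A, a separate protein that can bring initiator tRNA to some mRNAs, had 0, 15 and 12 counts in the NC libraries against 27, 71 and 78 in the Si-LIPG libraries. Its groups did not overlap in CPM, and the log2 fold change was 1.54 ± 0.67 (SE; unadjusted p = 0.0362, adjusted p = 0.198, edgeR), or 1.07 without NC 1, where it had no count. SERP1 lies within 1 kb of EIF2A.

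The 8 subunits of eIF3, which holds the 40S subunit and the mRNA together, had a median log2 fold change of 0.27, and none met the criterion. The values ran from -0.33 ± 0.30 for EIF3A, the most abundant, to 1.15 ± 0.77 (SE) for EIF3E. EIF3E rested on 0, 20 and 6 counts in the NC libraries against 18, 46 and 69, and its log2 fold change was 0.67 without NC 1 and 2.61 without NC 2. EIF3L was the only subunit without overlap, with 45.4, 36.0 and 58.3 CPM in the NC libraries against 72.2, 79.8 and 62.8 CPM in the Si-LIPG libraries and a log2 fold change of 0.61 ± 0.39 (SE). EIF3B, a scaffold of the complex, stood at -0.02 ± 0.32 (SE). NC 1 stood apart for EIF3I, at 13.0 CPM against 112 to 146 in the other 5 libraries.

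Of the remaining factors, EIF5, the GTPase activator of eIF2, had 71.3, 14.4 and 41.0 CPM in the NC libraries against 49.6, 83.1 and 119 CPM in the Si-LIPG libraries, with a log2 fold change of 1.06 ± 0.52 (SE; adjusted p = 0.260, edgeR). It was named after its values were seen. EIF5B, which joins the subunits, had 0.16 ± 0.34. EIF1, which guards the choice of the start codon, had -0.17 ± 0.44. EIF6, which keeps the 60S subunit from joining too early, had 0.43 ± 0.54, and EIF4A3 had -0.16 ± 0.36 (SE). The groups of these 5 genes overlapped.

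The genes that act on this machinery from outside were read from 5 lists, and none of their 52 tested genes had an adjusted p under 0.05. RACK1, a protein of the 40S subunit, and SERBP1, which occupies idle ribosomes, had log2 fold changes of 0.44 ± 0.36 and 0.32 ± 0.30 (SE). In the mTORC1 and S6 kinase list 1 of 12 tested genes met the criterion, in the higher direction (8.33% beside 7.83% of all genes). It was RHEB, the GTPase that activates mTORC1, with 25.9, 43.2 and 44.1 CPM in the NC libraries against 71.1, 83.1 and 106 CPM in the Si-LIPG libraries (log2 fold change 1.17 ± 0.39, SE; adjusted p = 0.0899, edgeR). TSC1, which holds RHEB back, had 1.33 ± 0.76 (SE) on 0, 11 and 8 counts against 18, 45 and 44. Among the eIF2 kinases and their stress response 1 of 8 met the criterion, in the lower direction (12.5% beside 12.9% of all genes). This was EIF2AK4, the kinase that senses amino acid lack, with 2964, 1221 and 1417 CPM in the NC libraries against 1207, 629 and 663 CPM in the Si-LIPG libraries (log2 fold change -1.16 ± 0.40, SE; adjusted p = 0.0995, edgeR). Its raw counts were 914, 678 and 899 against 1070, 772 and 907, and scaled to all reads its log2 fold change was 0.36. PPP1R15A, which brings a phosphatase to eIF2, had 0.79 ± 0.60 (SE).

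Among the poly(A)-binding and release factors 1 of 7 met the criterion, in the higher direction (14.3% beside 7.83% of all genes). PAIP1, which joins the poly(A)-binding protein to eIF4A, had 16.2, 54.04 and 15.8 CPM in the NC libraries against 62.1, 90.4 and 82.5 CPM in the Si-LIPG libraries, without overlap (log2 fold change 1.41 ± 0.49, SE; adjusted p = 0.101, edgeR). ABCE1, which recycles ribosomes, had 0.68 ± 0.63 (SE). Of 23 ribosome biogenesis factors 2 met the criterion, both lower, which was 8.70% of them beside 12.9% of all genes. They were NOC2L and BOP1, the latter (log2 fold change -1.15) named after its values were seen. NOC2L, a nucleolar factor, had 311, 148 and 134 CPM in the NC libraries against 94.8, 70.1 and 78.2 CPM in the Si-LIPG libraries (log2 fold change -1.27 ± 0.37, SE; adjusted p = 0.0556, edgeR). It was 0.32 when scaled to all reads. LSG1, a GTPase of late 60S maturation, had 1.28 ± 0.80 (SE) on 2, 2 and 10 counts against 10, 25 and 46.

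The number of members called differed with the scaling between libraries, the filter on low counts and the libraries used. TMM factors ran from 0.601 in NC 1 to 1.37 in Si-LIPG 3, and the median log2 fold change of all genes was 0.16 with TMM, 0.71 with library sizes alone and 1.58 with counts scaled to every read in the files. With library sizes alone 59 of the 63 members were above 0 and 17 met the criterion in the higher direction, which was 27.0% of them against 23.3% of all genes. Scaled to all reads, all 63 were above 0, 44 met the criterion (69.8% against 46.1% of all genes) and 13 had an adjusted p under 0.05 (20.6% against 11.4% of all genes), EEF1A1, RPS24, RPS27L and EIF4A1 among them. In that scaling the members' median less that of all genes was -0.03. Among genes with at least 10 counts in every library, 4 of 46 tested members had an adjusted p under 0.05 with TMM, all higher (8.70% against 6.93% of all genes): EIF4A2, EIF4A1, RPS24 and EIF4G2 (adjusted p = 0.0101, 0.0270, 0.0300 and 0.0329, edgeR). NC 1, the library with the fewest counts on genes, lay below the 6-library mean for 46 of the 63 members. Without it 8 members met the criterion in the higher and 1 in the lower direction. The 8 were 11.9% of the members tested, against 7.93% of all genes. The 1 was among 67 members tested, beside 693 of 7744 genes that met the criterion in the lower direction. Without Si-LIPG 2 EIF2B5 alone met it (1.61% against 3.49% of all genes), and without Si-LIPG 3 EIF4A2 and RPS27L did (3.17% against 3.59%).

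In the RefSeq annotation of ARS1.2, 73 of the 75 members were matched once, on 26 chromosomes, and 29 of them had another gene overlapping or within 1 kb. Beside the cases given above, TBC1D8 lies within 1 kb of RPL31, KRBA2 of RPL26 and SRA1 of EIF4EBP3. LOC102172950 overlaps EIF4G3. Reads of such genes could be among the counts of any of these members. The build and strand of the counting were not given in the sources used here, so no coordinates are printed. The median log2 fold change was 0.11 over the 25 tested members with such a neighbour and 0.23 over the 37 tested members without one.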

How the data were processed

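Poly(A) RNA-seq libraries of 3 NC and 3 Si-LIPG samples were grouped by their titles. The authors deposited counts, the whole number of reads on each gene of each library without normalization, and 5 rows for reads on no gene. The submitters' processing notes name fastp, HISAT2, SAMtools and HTSeq, while versions, genome build and strand setting were not given in the sources used here. FPKM values of these genes were also deposited, and all values lay within 1% of what the counts and one length per gene give. The study named DESeq2.

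Library sizes were sums over genes alone. Genes passing edgeR's filterByExpr were normalized by TMM and tested by the quasi-likelihood test without covariates (R 4.3.3, edgeR 4.0.16), with Benjamini-Hochberg adjustment over all 6574 genes. Calls were made at an adjusted p under 0.05 and at the study's criterion, an unadjusted p under 0.05 with a fold change over 1.5. Alternatives were DESeq2 1.42.0 and its size factors, other scalings and filters, limma 3.58.1 on log2 of FPKM plus a pseudocount of 1 or 0.1, a replicate block, and leaving out each library. The procedure was tested on simulated data, where edgeR at an adjusted p under 0.05 recovered 4% of 2-fold and 45% of 4-fold changes. Of its 51 calls there, 2 were false. The lack of a call for a member is therefore not evidence that its level was unchanged. Figures were drawn with matplotlib 3.10.9.

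Members named were those called at the adjusted p, in each role the most abundant and those with the largest differences, and 15 names fixed by role, of which 9 were matched. From each list outside the rule, the largest 2 differences were named. Other genes, named to complete a count or a complex, were chosen after their values were seen. The members and lists were chosen with earlier results of these data known. Counts of the smallest members limit precision, and a count of 0 was read as up to 3 counts, which covers counting error only. Replicate libraries differed by more than sampling noise, with a chi-square per degree of freedom of 4.21 to 12.5. No sequences were used. A member that enters the counts and medians is not reported here by itself.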

Additional observations from a re-analysis of the deposited data

How the results depend on the processing

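The number of members with an adjusted p under 0.05 and higher in the Si-LIPG groups was 0 with TMM, 13 scaled to all reads in the files, 4 among genes with at least 10 counts in every library and 0 to 1 with 1 library left out, the 1 being EIF4A2 without NC 3 (adjusted p = 0.0407, edgeR). That call was 1.49% of the members tested without NC 3, against 1.14% of all genes called higher there. At the criterion, 7 members were higher and 1 was lower with TMM. Higher and lower were 17 and 0 with library sizes alone, 44 and 0 scaled to all reads, 19 and 0 with limma on log2(FPKM + 1), 16 and 0 on log2(FPKM + 0.1), and 9 and 0 with at least 10 counts, and leaving out 1 library gave 1 to 8 and 0 to 2. The 19, 16 and 9 were 30.2%, 25.4% and 19.6% of the tested members, against 23.0%, 19.0% and 14.9% of all genes. With 1 library left out, 1.61% to 11.9% of the tested members were higher, against 3.49% to 9.87% of all genes. In the lower direction, 632 to 952 of the 6654 to 7744 genes tested met the criterion there. The members' median log2 fold change less that of all genes was 0.00997 with TMM, 0.0162 with DESeq2's size factors, 0.0328 with DESeq2, 0.210 with at least 10 counts, 0.0954 and 0.00653 with limma, -0.00803 with library sizes alone, -0.0276 scaled to all reads, -0.0602 without a filter and -0.0774 to 0.165 with 1 library left out. The ratio of the members' shares was 3.18 for all reads in the files, against 1.76 for counts on genes, and 1.45 to 2.04 with 1 library left out. The causes were not tested.

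Whether the replicate numbers pair the libraries could not be told. The deviations of same-numbered libraries correlated at 0.210, 0.0639 and 0.105, and those of differently numbered libraries at -0.154 to 0.0910. NC 2 correlated better with Si-LIPG 3 (0.0890) than with Si-LIPG 2. With a replicate block 5 members were higher (EIF4G2, EEF1A1, EIF4A1, EIF4A2 and EIF2A) and 1 was lower (EIF4ENIF1) at an adjusted p under 0.05. These were 7.94% and 1.59% of the members, against 4.06% and 10.0% of all genes. At the criterion 8 members were higher, which was 12.7% of them against 10.4% of all genes. Lower at the criterion were 2 members, beside 868 of 6574 genes. The median difference was 0.00554.

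Of 427 log2 fold changes of the 29 named and tested members under these settings, 364 kept their sign, and 15 members kept it throughout. With library sizes alone the sign turned to 0.41 for EIF1, 0.41 for EIF2S1, 0.19 for EIF3A, 0.59 for EIF3B, 0.35 for EIF4A3, 0.14 for RPL31, 0.090 for RPS10, 0.27 for RPS16 and 0.067 for RPS28. Scaled to all reads it turned to 1.27 for EIF1, 1.35 for EIF2S1, 1.02 for EIF3A, 1.505 for EIF3B, 1.19 for EIF4A3, 0.78 for EIF4EBP1, 0.49 for EIF4ENIF1, 1.02 for RPL31, 0.88 for RPLP2, 0.91 for RPS10, 1.07 for RPS16 and 0.95 for RPS28. With limma on log2(FPKM + 1), and then on log2(FPKM + 0.1), it turned to 0.39 and 0.40 for EIF1, 0.37 and 0.38 for EIF2S1, 0.26 and 0.26 for EIF3A, 0.54 and 0.55 for EIF3B, 0.45 and 0.46 for EIF4A3, 0.20 and 0.21 for EIF4EBP1, 0.16 and 0.16 for RPL31, 0.21 and 0.21 for RPS10, 0.42 and 0.43 for RPS16, and 0.14 and 0.14 for RPS28. With at least 10 counts it turned to 0.10 for EIF1, 0.10 for EIF2S1, 0.27 for EIF3B, 0.088 for EIF4A3 and 0.0082 for RPS16. EIF3B was 0.077 without a filter, and EIF4EBP2 was -0.0063 with DESeq2's size factors. With 1 library left out, EIF1 ranged from -0.48 to 0.069, EIF2S1 from -0.43 to 0.026, EIF3B from -0.18 to 0.091, EIF4A3 from -0.33 to 0.12, EIF4EBP1 from -1.03 to 0.021, EIF4EBP2 from -0.13 to 0.36, RPL22 from -0.0087 to 0.62 and RPS16 from -0.47 to 0.084.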

Other observations

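Of the 140 rows that carry a description but no symbol, 9 had enough counts to be tested, and those named here were chosen after their values were seen. A pair of rows described as a retrogene of RPS23, a protein of the decoding site of the 40S subunit, lay lower in the Si-LIPG groups, where the median of the named 40S genes was near 0. The first (ENSCHIG00000026291) had 931, 699 and 690 CPM in the NC libraries and 430, 311 and 270 CPM in the Si-LIPG libraries, with a log2 fold change of -1.20 ± 0.32 (SE; adjusted p = 0.0411, edgeR). The second (ENSCHIG00000006745) had 668, 259 and 470 CPM and 271, 146 and 180 CPM, with overlap, and a log2 fold change of -1.22 ± 0.38 (SE; adjusted p = 0.0666, edgeR). The raw counts of the first were 287, 388 and 438 against 381, 382 and 370. When all reads in the files set the scale, the log2 fold changes were 0.23 and 0.27. With 1 library left out, the adjusted p of the first reached 0.295.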
